A study of Mus musculus with 133 samples.

Results

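The livers of old male mice (OM) were compared 96 h after partial hepatectomy (PH) with those of OM that had received sham surgery and were examined at the same time. The members are the 6 libraries of this comparison among 133 libraries in the table, and every gene that passed a filter on low values was described. All mice were wild-type C57BL/6. OM were 60 weeks old. In PH the left and median lobes were ligated and resected, and in sham surgery the abdomen was opened along the midline and closed. Hepatocytes were then isolated by two-step collagenase digestion, and their RNA was sequenced from the 3' end by CEL-seq2, in which each transcript carries a unique molecular identifier (UMI). Each group held 3 libraries (PH 1 to 3, sham 1 to 3) numbered as separate replicates. Where the numbers do not stand for separate mice, the p-values measure only the spread between libraries. This spread was estimated from the 36 libraries of the fit described below. For comparison, PH and sham libraries (3 of each) were taken from OM at 52 h, from young males (YM, 11 to 14 weeks) at 96 h and from very old males (VOM, 100 weeks) at 96 h.

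After resection of most of the liver, the hepatocytes that remain leave quiescence, replicate their DNA and divide, until the mass of the organ is restored. While they do so they keep up the secretion of plasma proteins and the handling of nutrients and foreign compounds. Acute phase proteins rise in the early response, and genes of the zones around the portal and central veins can shift with the rebuilding of the lobule. Aging delays this process in rodents.

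Total counts ranged from 294889 in PH 3 to 3385714 in PH 2, and the sham libraries lay between 831593 and 3253199. PH 3, the shallowest library, had a count in 84.8% of the genes of the table, and the others in 93.2% to 98.7%. It also stood apart: the root mean square difference in log2(CPM + 4) was 0.384 between PH 1 and PH 2, but 0.695 and 0.745 between PH 3 and these 2, while PH 1 and PH 2 differed from the sham libraries by 0.483 to 0.633. CPM are counts relative to the library total after scaling by the TMM method. The labels name a mix for each library. Mix 20 held PH 2, PH 3, sham 2 and sham 3, whereas PH 1 came from mix 16 and sham 1 from mix 19, so that mix 20 was the only mix that held both groups, and values within it are given beside the pooled ones. The hepatocyte label was checked against 12 markers, which summed to 27174 to 42835 CPM in PH and 30588 to 32097 CPM in sham. Albumin (Alb) was at 8000 ± 1840 CPM (SD, n = 3) in PH and 6060 ± 75.1 CPM in sham, with no difference that passed the test (edgeR adjusted p = 0.2).

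A gene was called where the quasi-likelihood test of edgeR gave a Benjamini-Hochberg adjusted p under 0.1 and the fold change was at least 2. Of 11048 genes tested, 408 (3.69%) were called higher and 234 (2.12%) lower after PH. The 3 PH libraries lay above the 3 sham libraries without overlap in 338 of the 408, and below them in 189 of the 234. Over all genes tested, 12.8% lay above and 14.1% below without overlap. Without PH 3 the test called 362 genes higher and 232 lower. Within mix 20 it called 299 higher and 155 lower, 403 of the 642 genes were called there in the same direction, and all 642 had the same sign. The libraries of mix 20 are part of those that gave the 642 calls, so that this agreement is no separate support. Among the genes called higher, 20 had no count in any sham library and 26 had 1 to 3 counts in all. For a gene with no count the fold is given as a lower bound against 3 counts over the 3 sham libraries together (0.553 CPM). These intervals and bounds cover counting error only.

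**Figure D1:**
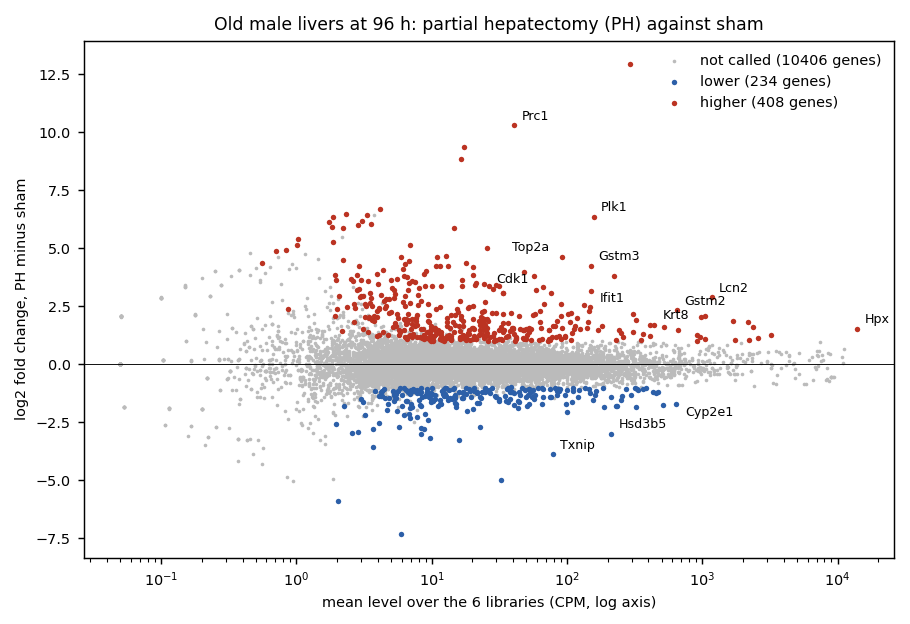
Each point is 1 of the 11048 genes tested, with its mean level over the 6 libraries (CPM, log axis) and its log2 fold change of PH against sham. The 408 genes called higher (red) include Prc1 and Plk1 near the top and Hpx at the highest level, and the 234 called lower (blue) include Txnip and Hsd3b5.

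By the share of tested members called higher, the interferon response (72.2%) and G2 and mitosis (67.9%) came first among the gene lists. Among 56 genes of G2 and mitosis, 38 were called higher and none lower, with a median log2 fold change of 3.72 (2.95 with the 14 members that had an empty group set at their bound). Among 36 interferon response genes, 26 were called higher and none lower, with a median of 1.56. The median over all genes tested was -0.005. At an unadjusted p under 0.05, 1 of the mitosis genes and 0 of the interferon genes were lower, and DESeq2 called 38 and 26 members higher and 0 lower in either list.

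**Figure D2:**
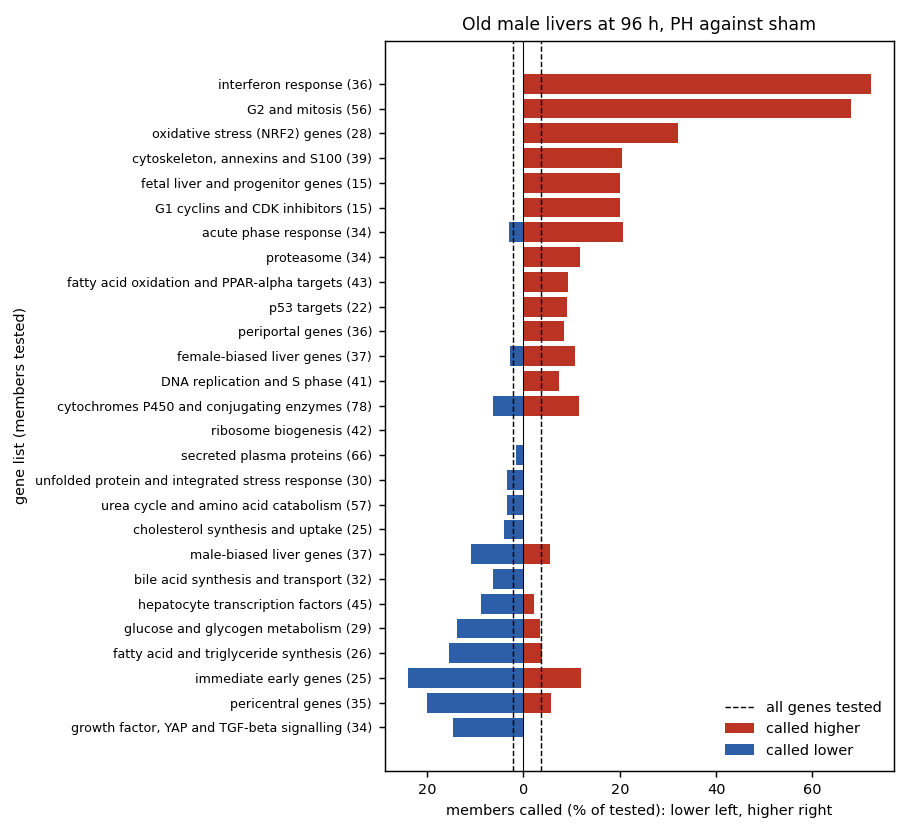
Bars give the percent of each list's tested members (number in parentheses) called higher (red, to the right) or lower (blue, to the left) in OM at 96 h. The dashed lines mark the shares over all genes tested, 3.69% higher and 2.12% lower; the interferon and mitosis bars reach farthest to the right, with 26 of 36 and 38 of 56 members.

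Several of the mitotic genes called higher had few or no counts after sham surgery. Prc1, which bundles microtubules of the central spindle, was at 105, 84.3 and 56.5 CPM in PH 1, 2 and 3 and had no count in any sham library, at least 157-fold higher. Knl1, a kinetochore scaffold outside the list, was at 28.8, 32.9 and 36.4 CPM after PH and had no count after sham, at least 58.3-fold higher. Plk1, the mitotic polo-like kinase, was at 325, 214 and 392 CPM after PH and at 0, 3.82 and 5.5 CPM after sham (log2 fold change 6.35 ± 1.27 SE, edgeR adjusted p = 0.00115). In these genes every PH library lay above every sham library. Of the 56 mitotic genes 18 were not called, among them Pttg1 (securin), at 112 ± 7.83 CPM after PH and 125 ± 20.6 CPM after sham.

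Cdk1, the kinase that drives entry into mitosis, was at 131, 118 and 113 CPM after PH and at 18.2, 12.4 and 6.88 CPM after sham (log2 fold change 3.35 ± 0.309 SE, edgeR adjusted p = 7e-09). Top2a, which untangles sister chromatids, was at 184, 111 and 238 CPM against 6.05, 6.68 and 6.88 CPM (4.63 ± 0.467, edgeR adjusted p = 2.99e-08). Mki67, the proliferation marker Ki-67, was at 49.1, 33.2 and 32.3 CPM against 3.63, 1.59 and 2.06 CPM (4.18 ± 0.562, edgeR adjusted p = 4.65e-06). The groups did not overlap in any of these genes.

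Others of the list followed. Stmn1, which destabilises microtubules, rose from 15.1 ± 2.46 to 137 ± 46.2 CPM (SD, n = 3), and Cdca3, a trigger of mitotic entry, from 1.06 ± 0.321 to 22 ± 3.1 CPM. Diaph3, a formin outside the list, had 2 counts over the sham libraries and was at 23.5, 25.4 and 36.4 CPM after PH, a ratio of 69.4 with a 95% counting interval of 18.8 to 580. Kif20a, the kinesin of cytokinesis, was 5.01 ± 0.732 higher on the log2 scale, the phosphatase Cdkn3 4.66 ± 0.979 and survivin (Birc5) 4.25 ± 0.956. Foxm1, the transcription factor of the G2 program, had 1 count over the sham libraries and was at 10.7, 2.42 and 4.04 CPM after PH, a ratio of 22.9 with a counting interval from 3.64 to 952 (edgeR adjusted p = 0.0479).

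The genes of DNA replication stood in contrast. Of 41, 3 were called higher and none lower (13 and 1 at an unadjusted p under 0.05; DESeq2 called 5 higher and 0 lower), and their median log2 fold change was 0.52. Rrm2, a subunit of ribonucleotide reductase, was at 71.5, 61.3 and 40.4 CPM after PH and at 19.4, 22.3 and 19.3 CPM after sham (1.57 ± 0.335, edgeR adjusted p = 0.0019). The ligase Lig1 rose from 3.86 ± 3.24 to 14.8 ± 3.05 CPM and the helicase subunit Mcm6 from 2.98 ± 0.577 to 9.79 ± 4.8 CPM. Pcna, the sliding clamp of replication, was at 48, 47.1 and 52.5 CPM after PH and at 42.4, 43.3 and 39.9 CPM after sham, a difference of 0.2 ± 0.183 that did not pass the test (edgeR adjusted p = 0.586).

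Among 15 G1 cyclins and CDK inhibitors, 3 were called, all higher. Cdkn1a, the p21 inhibitor, was at 352, 153 and 242 CPM after PH and 37.5, 26.1 and 71.5 CPM after sham (2.48 ± 0.453, edgeR adjusted p = 0.000355). Cdkn2c, the p18 inhibitor, rose from 9.94 ± 2.57 to 50 ± 10.1 CPM, and the pocket protein gene Rbl1 from 0.653 ± 0.637 to 3.33 ± 2.98 CPM, with overlapping libraries. Cyclin D1 (Ccnd1) was at 45.8 ± 9.86 CPM after PH and 47.1 ± 3.21 CPM after sham (-0.15 ± 0.426). Of 22 p53 targets, Cdkn1a and Pvt1 were called higher, the latter at 40.1 ± 25.2 CPM against 8.01 ± 0.613 CPM. The study displayed 11 cell cycle genes in normal liver and after PH, but not after sham, which is no independent choice. Among these 11, 6 were called higher against sham. None of the 10 DNA damage response genes displayed with them was called by edgeR or by DESeq2, and 0 had an unadjusted p under 0.05. Parp1 was at 9.09 ± 2.87 against 7.02 ± 3.15 CPM and Rad50 at 8.31 ± 1.19 against 7.68 ± 0.743 CPM. None of 42 genes of ribosome biogenesis was called by either tool (2 higher and 3 lower at an unadjusted p under 0.05), with Rcl1 at 207 ± 26.9 against 222 ± 15.2 CPM and Npm1 at 99.9 ± 40 against 135 ± 13.6 CPM.

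Promoters of the mitotic genes are known to carry the cell cycle homology region (CHR), a short element bound by the DREAM complex and by B-MYB with FOXM1. RefSeq promoter windows (GRCm38.p6, 250 bases before to 50 after the start of transcription) matched 35 of the 41 genes called higher in the 2 cell cycle lists. The CHR letters TTTGAA, on either strand, were present in 23 of the 35 (65.7%), and in 15% of the 7896 tested genes with a window. The variant TTTAAA, which reads the same on both strands, was in 8 of 35 (22.9%) against 11.6%. The E2F letters TTTCCCGC, TTTGGCGC or TTCCCGCC, which can overlap each other, were in 3 of 35 (8.57%) against 6.89%. A match is a description of the letters, not a bound site. The following windows of 30 bases show the CHR letters in capitals in genes described above. They are written 5' to 3' on the strand of the gene, and the capitals read TTCAAA where the match is on the other strand.
Cdk1, chr10:69352910-69352939, minus strand: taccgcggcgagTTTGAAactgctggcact
Mki67, chr7:135716460-135716489, minus strand: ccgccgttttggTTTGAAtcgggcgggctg
Prc1, chr7:80294434-80294463, plus strand: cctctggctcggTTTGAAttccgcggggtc
Top2a, chr11:99024195-99024224, minus strand: gctagataaaggTTCAAAtgaaactaggga
Plk1, chr7:122159394-122159423, plus strand, with TTTAAA: gcgggtttgtatTTTAAAtccccgcggcca

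The same 56 mitotic genes were compared between 96 h and 52 h in OM. At 52 h, 54 were called higher and none lower (54 and 0 at an unadjusted p under 0.05; 6.18% of all genes were called higher and 4.51% lower), with a median of 4.88. In the test of the difference between the 2 times, 10 of the 56 were smaller at 96 h and none larger (background 2.47% and 3.29%), and 13 of the 41 replication genes were smaller and none larger, 20 and 0 at an unadjusted p under 0.05. DESeq2 called 10 and 5 smaller, and none larger. Cdk1 was at 376, 348 and 392 CPM after PH at 52 h and differed between the times by -2.31 on the log2 scale (edgeR adjusted p = 0.00253). Top2a was at 573, 530 and 556 CPM at 52 h, and its difference of -0.88 did not pass the test (edgeR adjusted p = 0.529). Pcna was at 90.8, 119 and 92.1 CPM at 52 h and differed by -1.16 (edgeR adjusted p = 0.00392), and Ccnd1, at 109, 89.6 and 121 CPM, by -1.89 (edgeR adjusted p = 0.0444). The summed level of the mitotic list was 5381 to 6740 CPM after PH at 52 h, 1409 to 1843 CPM at 96 h and 325 to 395 CPM in sham at 96 h. Without PH 2 the count of mitotic genes that were smaller was 5 in place of 10, and with the mix as a covariate it was 6. For the replication genes it was 4 in place of 13 with the mix as a covariate and 1 in the mixes that held both groups.

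Against the other ages at 96 h, no mitotic gene was called different by edgeR in the fit of all 36 libraries. In YM 25 of the 56 were called higher after PH and none lower (35 and 1 at an unadjusted p under 0.05; background 2.61% and 1.83%), with a median of 2.55, and in VOM 39 and none (48 and 0 at an unadjusted p under 0.05; 4.98% and 2.28%), with a median of 3.22. In the tests of the differences, 5 were larger and 1 smaller in OM than in YM at an unadjusted p under 0.05 and DESeq2 called 2 larger, and 0 were larger and 7 smaller than in VOM, of which DESeq2 called 1. Rrm2 was at 9.52, 6.28 and 10.8 CPM after PH in YM and at 9.19, 25.1 and 10.6 CPM after sham, and its fold change in OM was larger by 2.33 on the log2 scale (edgeR adjusted p = 0.0164). With the mix as a covariate, 0 of the 41 replication genes differed between OM and YM by the test. In the mixes that held both groups it was also 0. Of the mitotic genes, 0 differed from YM with the mix as a covariate, and 2 were called larger in OM in the mixes that held both groups.

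The response to interferon is a program of antiviral and antigen-processing genes that are switched on after an interferon reaches its receptor. In OM at 96 h most of its measured members rose. Rsad2, the antiviral enzyme viperin (chromosome 12), was at 109, 98.8 and 113 CPM after PH and at 15.7, 10.5 and 9.63 CPM after sham (log2 fold change 3.21 ± 0.248 SE, edgeR adjusted p = 4.2e-10, the smallest of the comparison, shared with Ifit1 and Zbp1). Ifit1, which binds foreign RNA caps, was at 230, 159 and 428 CPM against 32.7, 25.4 and 27.5 CPM (3.17 ± 0.255, edgeR adjusted p = 4.2e-10). Isg15, the ubiquitin-like modifier, was at 50.1, 45 and 68.7 CPM against 3.63, 4.14 and 6.19 CPM (3.41 ± 0.288, edgeR adjusted p = 8.98e-10). In each of them every PH library lay above every sham library.

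Other interferon response genes were called higher as well, but not every regulator or antigen presentation gene of the program. Ifi27 rose from 49.9 ± 6.91 to 241 ± 56.4 CPM and Ifi44 from 1.39 ± 0.191 to 34.3 ± 6.65 CPM. Ifit3 was at 43.7, 26.6 and 88.9 CPM against 2.42, 4.45 and 4.81 CPM, although its counts can be split with its near-identical neighbour Ifit3b. Among the guanylate binding proteins, Gbp3 was at 65.1, 55.6 and 52.5 CPM against 6.05, 5.73 and 4.81 CPM. The regulator Irf7 (59.6 ± 16.6 against 7.61 ± 0.556 CPM) was called higher, whereas Stat2 (46.3 ± 5.25 against 47.2 ± 3.22 CPM), Irf9 (161 ± 18.5 against 122 ± 9.67 CPM) and Irf1 (45.7 ± 13.6 against 33.1 ± 6.05 CPM) were not. The antigen presentation genes B2m (log2 fold change 0.39), H2-D1 (0.15), H2-K1 (0.17) and Tap1 (0.76) were not called either, nor was Iigp1 (0.16). The chemokines Cxcl9 (39.1 ± 10.1 against 10.3 ± 2.46 CPM) and Cxcl10 (25.2 ± 7.84 against 11.8 ± 3.38 CPM) were called higher as well. Of the 36 members, 30 had every PH library above every sham library and none the reverse. Over all genes tested the shares were 12.8% and 14.1%. Within mix 20, 23 members were called higher, and without PH 3, 24. Interferon-inducible subunits of the immunoproteasome, Psmb8 (49 ± 12.8 against 22.2 ± 3.12 CPM) and Psmb9 (8.31 ± 1.19 against 1.96 ± 1.91 CPM), were also among the 4 of 34 proteasome genes called higher. The others were Psma5, at 170, 147 and 190 CPM against 62.9, 61.7 and 47.4 CPM, and Psma1. All 34 proteasome genes had a positive log2 fold change, with a median of 0.47.

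**Figure D3:**
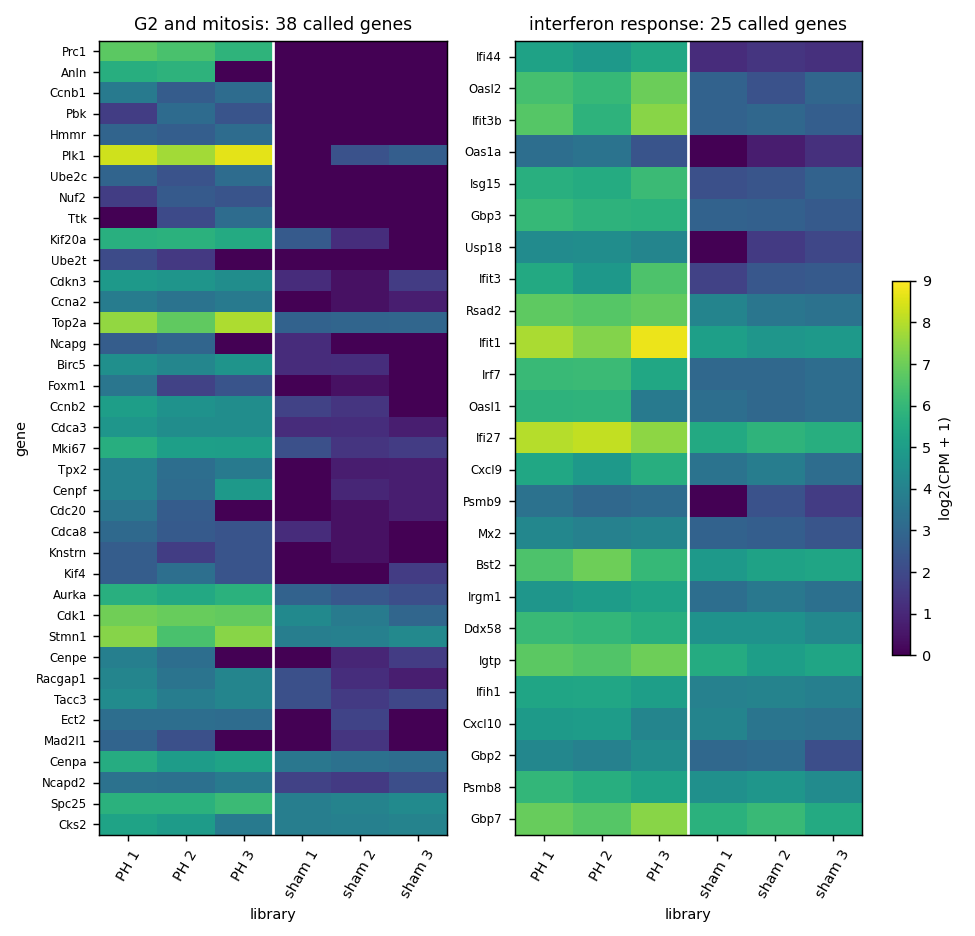
Rows are the 38 G2 and mitosis genes and 25 of the 26 interferon response genes called higher, columns the 6 libraries, and colour the level as log2(CPM + 1). The sham columns of the mitosis panel are at or near 0 in most rows, while most interferon genes have a low but measurable level after sham.

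Interferon-stimulated genes are recognised by the interferon-stimulated response element (ISRE). Its core, GAAA followed by any pair of bases and again GAAA, on either strand and with overlapping matches allowed, were found in the RefSeq windows of 15 of 22 called genes with a window (68.2%), and in 4.01% of the 7896 tested genes with a window. This motif was chosen after the interferon values were seen. Bst2, Cxcl10, Ddx58, Gbp2, Gbp3, Gbp7, Ifih1, Ifit1, Ifit3, Ifit3b, Igtp, Irgm1, Isg15, Oas1a and Rsad2 held it. The windows below show the core in capitals in genes described above, 5' to 3' on the strand of the gene. The capitals begin and end with TTTC where the match is on the other strand.
Isg15, chr4:156200865-156200894, minus strand: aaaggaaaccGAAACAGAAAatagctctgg
Ifit1, chr19:34640775-34640804, plus strand: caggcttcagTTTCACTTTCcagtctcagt
Ifit1, chr19:34640794-34640823, plus strand: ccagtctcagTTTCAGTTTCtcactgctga
Ifit3, chr19:34583363-34583392, plus strand: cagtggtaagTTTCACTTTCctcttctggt
Rsad2, chr12:26456553-26456582, minus strand: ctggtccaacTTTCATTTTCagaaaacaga

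The interferon response differed by time and by age. In OM at 52 h none of the 36 genes was called higher and 4 were called lower (0 and 11 at an unadjusted p under 0.05), with a median of -0.35. Over all genes 6.18% were called higher and 4.51% lower. Rsad2 was at 5.29, 4.65 and 3.64 CPM after PH at 52 h and at 18, 11.3 and 11.8 CPM after sham, below it in every library. The difference between 96 h and 52 h was called for 23 of the 36 genes, all larger at 96 h. Over all genes 3.29% were larger and 2.47% smaller. At an unadjusted p under 0.05, 32 were larger and 0 smaller, and DESeq2 called 23 and 0. This difference was 4.93 on the log2 scale for Rsad2 and 4.73 for Ifit1 (edgeR adjusted p = 1.98e-09 for each).

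In YM at 96 h none of the 36 was called in either direction (3 higher and 2 lower at an unadjusted p under 0.05), with a median of 0.14. Rsad2 was at 19, 16.6 and 24.6 CPM after PH in YM and at 13.5, 18 and 26.9 CPM after sham, and the libraries overlapped. The fold change was larger in OM than in YM for 22 of the 36 and smaller for none (27 and 0 at an unadjusted p under 0.05; DESeq2 called 18 and 0), against 1.14% and 0.742% of all genes. For Rsad2 this difference was 3.17 and for Irf7 3.51 on the log2 scale (edgeR adjusted p = 1.65e-06 and 7.5e-05). In VOM at 96 h 29 were called higher and none lower (32 and 0 at an unadjusted p under 0.05), against 4.98% and 2.28% of all genes. Their median was 1.94, and Rsad2 reached 408, 437 and 288 CPM after PH. No interferon gene was called different between OM and VOM by edgeR (2 larger and 11 smaller in OM at an unadjusted p under 0.05; DESeq2 called 1 smaller), where 0.444% and 0.326% of all genes were called.

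YM and OM came from different mixes. Within the mixes that held both PH and sham, 2 libraries of each, 23 interferon genes were called higher in OM (mix 20), none in YM (mix 21; median 0.16) and 25 in VOM (mix 13; median 2.04). In that smaller fit 7 genes were called larger in OM than in YM with a median difference of 1.4, against a median of 1.59 in the fit of all 36 libraries, and 15 were called larger at 96 h than at 52 h. With the mix as a covariate, 5 genes were called larger in OM than in YM and 20 larger at 96 h than at 52 h.

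**Figure D4:**
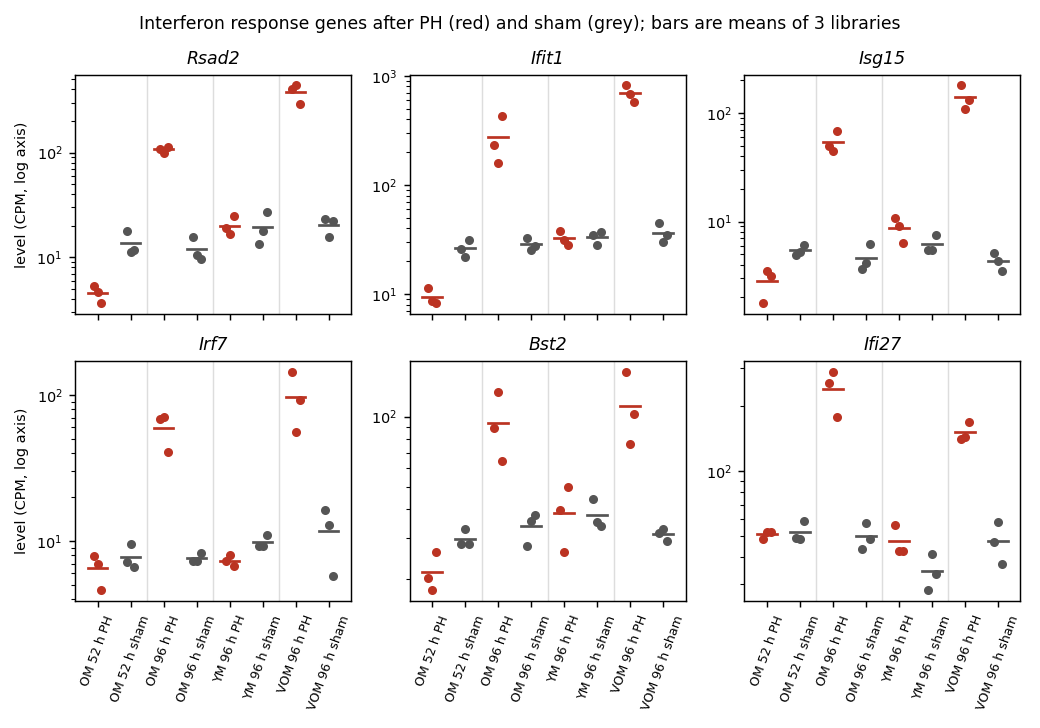
Points give the level (CPM, log axis) of 6 interferon response genes in each library of OM at 52 h and of OM, YM and VOM at 96 h, after PH (red) and sham (grey), and bars the means of 3 libraries. PH libraries lie above the sham libraries in OM and VOM at 96 h, for Rsad2 at 98.8 to 113 CPM in OM, whereas in YM the groups overlap for Rsad2 (16.6 to 24.6 CPM after PH and 13.5 to 26.9 CPM after sham), Ifit1, Isg15 and Bst2, PH lies below sham for Irf7 and above it for Ifi27, and none of the 6 passed the test there.

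Markers of other cell types were read beside these results. Among 18 Kupffer cell and macrophage markers only Marco, a scavenger receptor, was called higher by edgeR and by DESeq2 (39.5 ± 4.85 against 7.82 ± 2.13 CPM), and the summed level of the list was 904 to 1091 CPM in PH and 796 to 1071 CPM in sham, with C1qb at 234 ± 62 and 213 ± 32.7 CPM. None of the 10 neutrophil and 14 T and NK cell markers was among the genes tested. Of the B cell markers Igkc and Ighm were tested and summed to 42.7 to 56.5 CPM in PH and 50.3 to 66 CPM in sham, with Igkc at 39.3 ± 8.72 and 44.2 ± 8.86 CPM. Sinusoidal endothelial markers were lower: 4 of 14 (Clec4g, Stab1, Ptprb and Eng) were called lower and none higher (10 and 0 at an unadjusted p under 0.05; DESeq2 called 3 lower), and the list summed to 279 to 376 CPM in PH and 525 to 581 CPM in sham. Clec4g, a lectin of these cells, was at 123, 112 and 137 CPM against 251, 237 and 249 CPM (-1.02 ± 0.152, edgeR adjusted p = 2.75e-05). In these bulk samples fewer cells of a type and less RNA per cell cannot be told apart. Without PH 2, 1 endothelial marker was called lower. Of 15 stellate cell and fibroblast markers Col3a1 was called higher, at 92.8, 35.9 and 287 CPM against 39.9, 24.2 and 25.4 CPM with PH 3 far above the rest, and Dcn and Ecm1 lower. The list summed to 202 to 582 CPM in PH and 303 to 384 CPM in sham. Of the cholangiocyte markers 2 were tested, Sox9 (110 ± 43.4 against 56.5 ± 16.4 CPM, edgeR adjusted p = 0.116) and Spp1, and none of 5 erythroid markers was called by edgeR or DESeq2 (0 higher and 1 lower at an unadjusted p under 0.05), with Alas2 at 50.6 ± 19.4 against 76.8 ± 12 CPM. The part of these cells in the interferon and other differences was not tested.

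Part of the genes of the defence against oxidative stress were called higher. NRF2 is the transcription factor that switches on glutathione synthesis and conjugation and the enzymes that reduce oxidised proteins. Of 28 such genes, 9 were called higher and none lower (19 and 0 at an unadjusted p under 0.05; DESeq2 called 10 and 0), with a median of 0.68. Gstm3, a glutathione S-transferase (chromosome 3), was at 274, 336 and 246 CPM after PH and at 9.68, 17.8 and 15.1 CPM after sham, with no overlap (4.24 ± 0.462, edgeR adjusted p = 1.37e-07). Srxn1, sulfiredoxin, was at 180, 137 and 149 CPM against 16.9, 26.1 and 31.6 CPM (2.58 ± 0.324, edgeR adjusted p = 1.36e-06). Ugdh, which makes the substrate of glucuronidation, was at 501, 445 and 561 CPM against 100, 122 and 107 CPM (2.17 ± 0.266, edgeR adjusted p = 1.05e-06).

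The rest were Osgin1 (190 ± 37.2 against 47.4 ± 2.39 CPM), Gsta1 (30.4 ± 7.04 against 2.87 ± 0.709 CPM), Gsta2, Gstm1, Gsr and Pgd, an enzyme of the pentose phosphate pathway that makes NADPH (30 ± 2.65 against 9.66 ± 3.51 CPM). Nfe2l2, which encodes NRF2, was at 27.1 ± 6.49 and 30.3 ± 4.83 CPM. Because Gst genes of a class share sequence, counts can be split between them. The difference was called larger at 96 h than at 52 h for 11 of the 28 and smaller for none. Over all genes the shares were 3.29% and 2.47%. At an unadjusted p under 0.05 it was 15 and 0, and DESeq2 called 10 and 0. The fold change was larger in OM than in YM for 6 and smaller for none, against 1.14% and 0.742%. There 12 and 0 had an unadjusted p under 0.05, and DESeq2 called 7 and 0. Gstm3 was at 10.6, 20.4 and 19.4 CPM after PH at 52 h and at 76.6, 63.9 and 131 CPM after PH in YM at 96 h, where sham was at 48.4, 48.9 and 46.7 CPM. Its fold change in OM at 96 h was larger by 3.97 than at 52 h (edgeR adjusted p = 0.000766) and by 3.32 than in YM (edgeR adjusted p = 0.00278). In VOM the same gene was at 841, 129 and 380 CPM after PH and did not differ in fold change from OM by the test (1.1, edgeR adjusted p = 0.523). With the mix as a covariate, 7 of the 28 genes were called larger than at 52 h and 0 larger than in YM, and in the mixes that held both groups 6 and 2.

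The letters of the antioxidant response element, TGACNNNGC on either strand, chosen after the values were seen, were in the RefSeq windows of 3 of 8 called genes with a window (37.5%; Pgd, Srxn1 and Ugdh), and in 17.1% of tested genes with one. The window of Ugdh is shown with the core in capitals, 5' to 3' on the strand of the gene.
Ugdh, chr5:65435955-65435984, minus strand: gcggagcccgTGACTTAGCtggagctgatt

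Enzymes of drug metabolism moved in both directions. Of 78 cytochromes P450 and conjugating enzymes, 9 were called higher and 5 lower. Of the 9 increases 6 were glutathione S-transferases: besides Gstm3, Gstm2 was at 845, 749 and 1640 CPM against 184, 178 and 278 CPM, and Gstm4 at 185 ± 17.6 against 63.8 ± 12.7 CPM. Cyp2e1, the ethanol-inducible P450 of pericentral hepatocytes, was at 284, 257 and 380 CPM after PH and 851, 1140 and 934 CPM after sham (-1.7 ± 0.208, edgeR adjusted p = 1.04e-06). At 52 h 1 enzyme was called higher and 22 lower, against 6.18% and 4.51% of all genes. The difference was called larger at 96 h for 27 of the 78 and smaller for none, against 3.29% and 2.47%. At an unadjusted p under 0.05 it was 37 and 3, and DESeq2 called 27 and 0. With the mix as a covariate 16 were called larger and 0 smaller, and in the mixes that held both groups 13 and 1.

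The pericentral zone surrounds the central vein and depends on WNT signals, for which Glul, Lgr5 and Nkd1 are markers. Of 35 pericentral genes 7 were called lower (Cyp2e1, Cyp2c37, Cyp2c54, Nr1i3, Glul, Lgr5 and Nkd1) and 2 higher (Gstm3 and Slc1a4), with a median of -0.49. Cyp2c37 was at 119, 83.1 and 109 CPM against 294, 400 and 373 CPM, and Nr1i3, the xenobiotic receptor CAR, at 11.7, 10.9 and 4.04 CPM against 38.7, 35 and 28.9 CPM. Glul, glutamine synthetase, was at 81, 72.2 and 137 CPM against 138, 217 and 168 CPM, with PH 3 just under the lowest sham library (-1.01 ± 0.273), and was not called by DESeq2, with RLE size factors, with the mix as a covariate, within mix 20, or without PH 1, PH 2 or sham 2. DESeq2 called 4 of the 35 lower, as did the fit with the mix as a covariate and that without PH 2. The fold change was smaller in OM than in YM for 3 pericentral genes, Cyp2e1 among them (-1.34, edgeR adjusted p = 0.0124), and larger for 1. Over all genes the shares were 0.742% smaller and 1.14% larger. With the mix as a covariate 0 pericentral genes were called smaller and 0 larger, and in the mixes that held both groups 0 and 1. Of 36 periportal genes, 3 were called higher and none lower (8 and 4 at an unadjusted p under 0.05; DESeq2 called 2 higher and 0 lower): Ifitm3, also interferon-inducible, at 1350 ± 344 against 586 ± 47.9 CPM, Aldh1b1 at 76.9 ± 42.9 against 28.5 ± 9.57 CPM, and Cdh1 at 64.3 ± 36.8 against 34.7 ± 10.5 CPM. Aldh1b1 and Cdh1 overlapped between the groups.

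Immediate early genes respond to growth factors within minutes. Of 25, 6 were called lower (Fos, Egr1, Ier2, Klf10, Dusp1 and Gadd45g) and 3 higher (Klf6, Ier3 and Ier5), and 16 were not called. Ier2 was at 130, 97 and 125 CPM after PH and at 294, 248 and 375 CPM after sham (-1.41 ± 0.229, edgeR adjusted p = 7.63e-05), and Egr1 at 24.5, 26 and 16.2 CPM against 94.4, 51.9 and 102 CPM (-1.72 ± 0.345, edgeR adjusted p = 0.00108). Klf10 was at 4.27, 1.81 and 0 CPM against 12.1, 17.5 and 14.4 CPM. Klf6 went the other way, at 32, 27.2 and 48.5 CPM against 8.47, 8.27 and 12.4 CPM. Of 34 genes of growth factor, YAP and TGF-beta signalling, 5 were called lower and none higher (19 and 0 at an unadjusted p under 0.05; DESeq2 called 4 and 0): Igfbp2, a binding protein of insulin-like growth factors, at 273 ± 25.6 against 644 ± 66 CPM, the interleukin 6 receptor Il6ra at 31.9 ± 6.69 against 84.6 ± 3.1 CPM, Bmp2 at 23.4 ± 1.85 against 53 ± 8.05 CPM, Id1 at 3.5 ± 3.76 against 12.9 ± 6.03 CPM with overlapping libraries, and Smad7. Igfbp1 was at 30.3 ± 19.3 against 24.7 ± 4.1 CPM and did not pass the test.

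**Figure D5:**
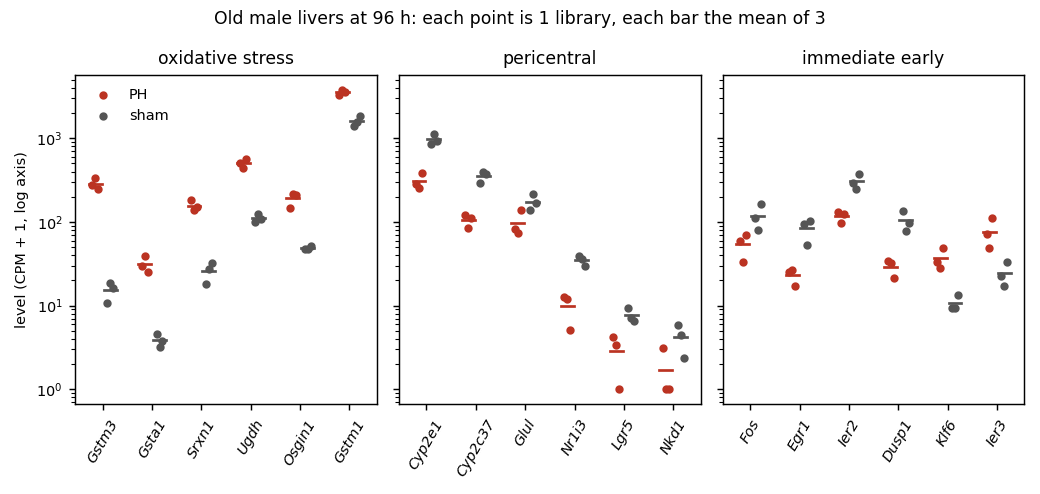
Each point is the level of a gene in 1 library (CPM + 1, log axis) after PH (red) or sham (grey), and each bar the mean of 3, for oxidative stress, pericentral and immediate early genes. Gstm3 and Srxn1 are higher in every PH library, Cyp2e1 and Egr1 lower in every PH library, and Klf6 and Ier3 run opposite to Fos and Egr1.

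The acute phase response is the change in plasma proteins made by the liver in inflammation. Of 34 genes, 7 were called higher and 1 lower (Il1r1), with a median of 0.16. Lcn2, a siderophore-binding protein, was at 2180, 978 and 3080 CPM against 211, 459 and 163 CPM (2.88 ± 0.495, edgeR adjusted p = 0.000161). Saa1 was at 3010, 3310 and 4330 CPM against 862, 1830 and 821 CPM (1.59 ± 0.397, edgeR adjusted p = 0.00784), and sham 2 was the highest sham library in Lcn2, Saa1 and Saa2. Hpx, the haem scavenger hemopexin and the gene with the highest count in each PH library, was at 13900, 12500 and 36200 CPM against 7020, 7680 and 6960 CPM (1.53 ± 0.303), and was not called without PH 3. Apcs rose from 45 ± 7.65 to 166 ± 11.8 CPM and Saa2 was at 1420, 1720 and 1930 CPM against 228, 746 and 228 CPM. Without PH 3, 4 of the 34 were called higher in place of 7.

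Structural and progenitor genes rose in part. Of 39 genes of the cytoskeleton, annexins and S100 proteins, 8 were called higher and none lower (15 and 0 at an unadjusted p under 0.05; DESeq2 called 8 and 0). Krt8, the keratin of hepatocytes, was at 605, 559 and 852 CPM against 201, 222 and 182 CPM (1.71 ± 0.186, edgeR adjusted p = 1.34e-07), and its partner Krt18 at 353, 374 and 339 CPM against 113, 139 and 131 CPM. S100a11 rose from 12.5 ± 4.36 to 64.1 ± 18.4 CPM and Tagln2 from 25.2 ± 5.23 to 101 ± 29.4 CPM. Of 15 fetal liver and progenitor genes tested, 3 were called higher and none lower (6 and 0 at an unadjusted p under 0.05; DESeq2 called 3 and 0): Ly6d at 35.2, 22.1 and 56.5 CPM against 3.63, 1.59 and 2.06 CPM, Spp1 (osteopontin) at 10.7, 17.2 and 24.2 CPM against 0, 0.954 and 1.38 CPM, and the desaturase Scd2 at 11.1 ± 10.3 against 1.66 ± 1.46 CPM.

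Genes of differentiated hepatocyte functions were called at shares near or below those over all genes tested, 3.69% higher and 2.12% lower. Of 66 secreted plasma proteins 1 (1.52%) was called lower (Apoa5, 235 ± 42.5 against 494 ± 59.6 CPM) and none higher (8 higher and 15 lower at an unadjusted p under 0.05; DESeq2 called 0 and 1). Of 57 genes of the urea cycle and amino acid catabolism, Glul and Prodh (14.3 ± 5.53 against 35.8 ± 3.45 CPM) were called lower (3.51%) and none higher (6 higher and 11 lower at an unadjusted p under 0.05; DESeq2 called 0 and 1). Hnf4a, the master regulator of hepatocyte identity, was at 329 ± 12.5 against 390 ± 37.3 CPM (-0.24 ± 0.136, edgeR adjusted p = 0.3), and Apoa1, the highest hepatocyte marker, at 8650 ± 2440 against 6660 ± 324 CPM (0.38 ± 0.212). Of 30 genes of the unfolded protein response Herpud1 (3.33%) was called lower, at 79.3 ± 10.1 against 165 ± 17.1 CPM.

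Lipid and glucose genes were lower in part. Of 26 genes of fatty acid and triglyceride synthesis, 4 were called lower, among them Mid1ip1, Lpin1 and Mlxipl, and Scd2 higher. Lpin1, a phosphatidate phosphatase, was at 57.6, 105 and 76.7 CPM against 260, 398 and 231 CPM, and Mlxipl, which encodes the glucose-responsive factor ChREBP, at 46.5 ± 7.15 against 103 ± 14.4 CPM. Mid1ip1 was at 45 ± 20.8 against 152 ± 35.6 CPM. Of 29 genes of glucose and glycogen metabolism, 4 were called lower and Pgd higher. Among the former, the glucose transporter Slc2a2 was at 107, 156 and 125 CPM against 351, 419 and 359 CPM (-1.52 ± 0.25, edgeR adjusted p = 9.77e-05), Ppp1r3b, a glycogen-targeting subunit, at 42.1 ± 10.6 against 110 ± 15 CPM, and Pfkfb3 at 4.67 ± 2.97 against 13.2 ± 6.32 CPM. Of 25 cholesterol genes Stard4 was called lower, at 49.1 ± 18.1 against 168 ± 36.5 CPM.

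Of 43 genes of fatty acid oxidation and PPAR-alpha targets, 4 were called higher and none lower, while their median was -0.15 (4 and 12 at an unadjusted p under 0.05; DESeq2 called 4 and 0). Pdk4 had no count after sham and was at 5.33, 5.14 and 0 CPM after PH, at least 8.85-fold higher, and Cyp4a31 rose from 10.5 ± 3.63 to 37.2 ± 10.5 CPM, Acot2 from 1.02 ± 1.25 to 5.98 ± 1.86 CPM and Cd36 from 8.7 ± 2.64 to 14.3 ± 11 CPM with overlapping libraries. Of 32 bile acid genes the uptake transporters Slc10a1 (205 ± 75.2 against 468 ± 10.9 CPM) and Slco1a1 (274, 215 and 206 CPM against 549, 876 and 940 CPM) were called lower, and none higher (3 and 9 at an unadjusted p under 0.05; DESeq2 called 0 and 2). Cyp7a1, the rate-limiting enzyme of bile acid synthesis, was at 204, 143 and 279 CPM against 65.3, 330 and 94.9 CPM, and the groups overlapped.

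Sex-biased genes depend in males on pulses of growth hormone. Of 37 male-biased genes, 4 were called lower (Hsd3b5, Slco1a1, Mup21 and Slc22a28) and 2 higher (Selenbp2 and Tff3), with a median of -0.53, and with the mix as a covariate 2 were called lower and 1 higher. Hsd3b5, a steroid dehydrogenase, was at 81, 23.3 and 52.5 CPM against 294, 366 and 460 CPM (-2.99 ± 0.6, edgeR adjusted p = 0.00107). Mup21, of the major urinary proteins, was at 249 ± 164 against 617 ± 56.2 CPM, and Selenbp2 at 1170, 768 and 982 CPM against 391, 391 and 263 CPM. Counts within the Mup family can be split between near-identical copies. Of 37 female-biased genes, 4 were called higher (Cyp3a41b, Cyp2b10, Fmo4 and Nipal1) and 1 lower (Tox). DESeq2 called 2 higher and 0 lower, the fit within mix 20 called 1 and 1, and that with the mix as a covariate 0 and 0. Cyp3a41b was at 69.3, 48.9 and 60.6 CPM against 14.5, 11.8 and 35.1 CPM, and Cyp2b10 at 4.53 ± 1.63 against 1.73 ± 0.454 CPM. Fmo4 (12.1 ± 10.4 against 8.3 ± 1.75 CPM) and Tox (7.1 ± 7.85 against 8.39 ± 2.12 CPM) overlapped between the groups, and the sign of Fmo4 turned without PH 2.

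Several of the largest decreases were regulators. Of 45 hepatocyte transcription factors and clock genes, 4 were called lower (Nr1i3, Per2, Per3 and Tef) and Arntl, which encodes the clock activator BMAL1, higher. Per2, a clock repressor, was at 4.27, 1.81 and 8.08 CPM against 14.5, 20.7 and 6.88 CPM, with overlap, and Tef, a clock-controlled factor, at 52.9 ± 7.96 against 116 ± 24.3 CPM. Per3 was at 3.94 ± 3.79 against 14.3 ± 4.75 CPM. Among the 10 genes with the largest decreases and no overlap between groups were the clock repressors Ciart (4.27, 6.65 and 12.1 CPM against 23, 74.4 and 17.2 CPM) and Bhlhe41 (2.13 ± 2.13 against 11.6 ± 4.81 CPM). Txnip, an inhibitor of thioredoxin and of glucose uptake, was at 11.7, 6.34 and 24.2 CPM against 273, 54.1 and 105 CPM (-3.87 ± 0.59, edgeR adjusted p = 3.26e-05), and its sham libraries differed widely among themselves. The others were Hsd3b5, Klf10, Tpbgl (0.705 ± 1.22 against 10.7 ± 2.1 CPM), E030018B13Rik, annotated as protein-coding, and the predicted genes or noncoding RNAs Gm4953, Gm15564 and Gm37376. Gm4953, a processed pseudogene whose counts can come from its parent gene, was at 8.53, 0 and 0 CPM against 67.8, 64.6 and 55 CPM.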

How the data were processed

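Deposited values were the authors' estimated counts: UMIs mapped with the celseq2 pipeline to GRCm38, per the paper, corrected for 4096 possible UMIs, filtered for low expression after removal of 9 genes, and batch-corrected with ComBat-Seq. The batch variable and the low-expression threshold are not given in the sources used here, and the batch correction could shrink or add differences between groups. The submitters' processing notes list GRCh38 and bcl2fastq 2.20, but the gene identifiers are those of mouse. The correction can give at most 34069.6 transcripts, a limit that 10 genes exceed in the 6 libraries after batch correction. Counts were rounded (30966 values in 448 genes were not whole). Symbols came from GENCODE vM21 (11020 of 11049 identifiers matched).

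A model was fitted to 36 libraries (YM, OM and VOM, PH and sham, 52 and 96 h, 3 each) for every gene that reached 0.5 CPM in 1 library or more, with 1 coefficient per group, in edgeR 4.0.16 (R 4.3.3), with TMM factors. Libraries marked X in the labels were left out where 3 unmarked ones remained. Calls needed a Benjamini-Hochberg adjusted p under 0.1 and a 2-fold change. The paper states that the defaults of iDEP were used, without giving these values. The SE is the log2 fold change divided by the square root of F. Differences between comparisons were contrasts in the same model, between groups with no shared library. The fits were tested on simulated data; DESeq2 1.42.0 was the other tool run. The smallest p that exact permutation allows for 3 libraries a group is 0.1. Counts of replicates varied beyond sampling in every pair of libraries, by a factor of at least 1.99 in chi-square relative to its degrees of freedom. Tables and plots used Python 3.11.15, SciPy 1.17.1 and matplotlib 3.10.9.

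The comparison and the gene lists were chosen with earlier results of these data known. Genes named are, by rule, the 10 called higher and 10 called lower with the largest change, no overlap between groups and a mean of at least 10 counts; up to 4 called members of each list with the smallest p, or the 2 members with the highest level where none was called; the highest marker of each cell type; 3 genes in each direction for each difference between comparisons; and Mki67, Cdk1, Pcna, Ccnd1, Cdkn1a, Foxm1, Cyp7a1, Saa1, Alb, Hnf4a and Igfbp1. Myc and Afp, also in the rule, were not among the genes tested. Further list members were named after their values were seen. The alternatives tried were DESeq2, RLE size factors, other thresholds and filters, fewer groups, the mix as a covariate or only mixes with both groups, the replicate number as a block, and leaving out each library. The fit to mixes with both groups and that without the VOM sham group at 52 h were chosen after seeing the data. CEL-seq2 reads the 3' end, so that counts of families and pseudogenes with shared 3' ends are uncertain. Values of some list members are not reported here.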

Additional observations from a re-analysis of the deposited data

Results flagged for a closer look

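For each difference between PH effects the 3 called genes with the largest difference in each direction are given, by a test of the difference itself in edgeR. The values are differences of log2 fold changes. Where a group has no count, the fitted value depends on the prior count and is no measure of size.

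Against OM at 52 h the difference was 6.03 for Moxd1 (edgeR adjusted p = 0.0631), 5.29 for Ifit3b (4.67e-05) and 4.95 for Gbp3 (0.000386), and -8.51 for Bard1 (0.0159), -7.56 for Hist1h2ah (0.0371) and -6.33 for Iqgap3 (0.0182). Bard1, a partner of BRCA1, was at 69.6, 68.6 and 70 CPM after PH at 52 h with no count in sham, and at 23.5, 29 and 0 CPM at 96 h against 12.1, 7 and 9.63 CPM in sham. With the mix as a covariate Bard1, Hist1h2ah and Iqgap3 did not pass (edgeR adjusted p = 0.146, 0.18 and 0.124) and the other 3 did. Moxd1 rested on PH 2, the only PH library at 96 h with a count (12.7 CPM).

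Against YM at 96 h it was 15.25 for ENSMUSG00000097956, which had no symbol (edgeR adjusted p = 0.0822), 4.98 for Gstm2-ps1 (0.029) and 4.36 for Gm5368 (0.0604), and -5.27 for Gm4953 (0.0582), -2.71 for Slc13a5 (0.0358) and -2.55 for Socs3 (0.0437). ENSMUSG00000097956 was at 0, 367 and 1370 CPM after PH in OM with no count in sham, so that the groups overlapped. In YM it was at 0, 85.6 and 0 CPM after PH against 233, 0 and 165 CPM in sham. Socs3, the inhibitor of cytokine signalling, was at 9.6, 9.97 and 20.2 CPM after PH in OM against 18.2, 33.1 and 25.4 CPM in sham, and at 33.7, 36 and 74.6 CPM in YM against 23.9, 15.5 and 24.2 CPM. With the mix as a covariate none of these 6 passed (edgeR adjusted p from 0.13 to 0.694).

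Against VOM at 96 h it was 3.99 for Clec2h (edgeR adjusted p = 0.0213), 3.44 for Ocrl (0.0367) and 3.12 for Cib3 (0.0213), and -12.33 for Rad54b (0.000297), -8.21 for Lgi1 (0.000729) and -3.94 for Zbtb16 (0.059). Rad54b, a helicase of homologous recombination, was at 1520, 2240 and 1810 CPM after PH in VOM and at 0, 0 and 1.16 CPM in sham, whereas no OM library at 96 h exceeded 1.38 CPM. It was also called with the mix as a covariate (edgeR adjusted p = 0.00398), and the other 5 were not.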

How the results depend on the processing

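The 642 calls of OM at 96 h became 410 with the mix as a covariate, 1039 at an adjusted p under 0.05 with no fold minimum, 562 with DESeq2, 728 with the replicate block and 550 to 595 when 1 library was left out. Same-numbered PH and sham libraries correlated in their deviations by -0.12, 0.2 and 0.14, and libraries 2 and 3 but not 1 correlated best with their own number. Whether same-numbered libraries share more than a number cannot be told from so few pairs. With RLE size factors the median log2 fold change over all genes was 0.008 in place of -0.005, and 423 genes were called higher and 219 lower. The 637 differences from 52 h became 257 with the mix as a covariate, 186 in mixes that held both groups and 403 to 634 without 1 library, the lowest without PH 2. The 208 from YM became 11, 23 and 125 to 265, 105 with the replicate block, and 116 and 104 at an adjusted p under 0.05 without and with the 2-fold minimum. The 85 from VOM became 1, 3 and 38 to 77, 40 with the replicate block, 24 with only the groups compared, and 39 and 34 at the stricter threshold. Without 1 library, acute phase genes called higher numbered 4 to 8, pericentral genes called lower 4 to 9 (4 with DESeq2 and 4 with the mix as a covariate), endothelial markers called lower 1 to 6 and mitotic genes smaller at 96 h than at 52 h 5 to 11 (6 with the mix as a covariate). Interferon genes called larger than at 52 h numbered 15 in mixes with both groups. Those larger than in YM numbered 5 with the mix as a covariate, 7 in mixes with both groups and 15 to 21 without 1 library. Oxidative stress genes larger than at 52 h numbered 7 and 6 under those 2 settings, and larger than in YM 0 and 2. The sign turned without PH 2 for Fmo4 (log2 fold change -0.13 to 1.32 without 1 library) and for the difference of Moxd1 from 52 h (-0.85 to 6.46). Of 1938 values of the 114 named genes over all settings, 1823 kept their direction and side of the threshold and 112, in 37 genes, no longer passed. Apart from the settings that use fewer libraries, the cause was not tested. Depth limits the low genes of PH 3 most.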
